A study of Lathyrus oleraceus subsp. biflorus and Lathyrus oleraceus and [Pisum sativum] subsp. abyssinicum with 117 samples.

Results

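Messenger RNA of the developing seed coat of the wild pea accession JI261 (Pisum elatius) was followed over 4 stages labelled D1, D3, D4 and D5. The libraries were chosen by the accession, tissue and stage in their labels, and 8 of the 117 libraries of the series met that choice, 2 at each stage. The study sequenced seed coats and embryos of 6 wild, domesticated and Ethiopian peas to ask how domestication changed expression in the seed coat. The labels give JI261 no mutation or transgene and no treatment, and its plants grew in pots in a glasshouse, like those of the other groups used here. The later stages D4 and D5 were set against D1 and D3, and each stage against the stage before it. Each step was also set against the same step in the seed coats of JI1794, another wild P. elatius accession (8 libraries), and of JI92, a domesticated landrace of P. sativum (7 libraries, 1 of them at D5). The seed coat was further compared with 6 embryo libraries of JI261 at D3, D4 and D5. Lists of features were defined in PI358617, an Ethiopian pea. Its seed coats, those of the wild accession JI64 and those of Cameor, to whose genome the reads were mapped, entered descriptions of stage. The labels number the stages without giving days. No JI261 seed coat library of D2 was analysed here, so the step from D1 to D3 spans a stage that the other accessions have. Whether paired libraries of a stage came from separate plants is not in the labels, so the p-values reflect a spread among libraries that may be technical.

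The seed coat grows from the integuments of the ovule and is maternal tissue that encloses the embryo. Early in development its cells divide and expand, and it passes sugars and amino acids from the mother plant to the embryo. Later the outer palisade cells thicken their walls and gather phenolic compounds, and in wild legumes the mature coat often keeps water out, which holds the seed dormant.

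The deposited tables listed 59594 features. By identifier, 27650 began with Psat1g to Psat7g, 4207 began with Psat0s, and 27737 were loci outside the annotation, named Ps_DOR2genes. Gene names are not paired with identifiers in the files, and of 65673 RefSeq genes on the ZW6 pea assembly 0 could be matched. Features are therefore given by identifier and described by their levels, without a function. Levels are normalised CPM, that is, counts scaled by the library total and a TMM factor. They are not divided by gene length unless FPKM is named.

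The 8 libraries held 60.32 to 69.47 M counts, and 15307 to 18162 features reached 1 CPM. The 2 libraries of a stage had Spearman correlations of 0.988 at D1, 0.955 at D3, 0.963 at D4 and 0.977 at D5. Each pair differed by more than sampling noise, so all 8 were kept as separate samples. Across stages the correlation was lowest between D1 and D5, at 0.776 to 0.778 over 25494 features, and highest between D4 and D5, at 0.923 to 0.934. The D3 libraries stood apart in how unevenly their counts were spread. Their 10 highest features took 18.2% and 20.9% of counts, while the same measure was 6.49% and 6.54% at D1, 8.35% and 8.23% at D4, and 8.97% and 9.15% at D5. At D3 it was 9.87% and 9.74% in JI1794 and 8.93% and 9.63% in JI92. At D2, a stage not analysed in JI261, it was 11.5% and 10.2% in JI1794 and 10.7% and 11.8% in JI92. TMM factors were 0.757 and 0.703 in the D3 libraries and 1.043 to 1.234 at the other stages, so results of the steps into and out of D3 depend on the scaling, as given beside them.

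The labelled tissue was checked with lists defined in another accession, the Ethiopian pea PI358617, in which no JI261 library took part. The 300 features most enriched in the PI358617 seed coat took 7.31 to 17.6% of counts in JI261 seed coats, against 0.0175 to 0.0576% in JI261 embryos. At D3, 279 of the 294 that were tested were higher in the JI261 seed coat than in its embryo, where 24.9% of all tested features were higher. In the JI261 seed coat the 50 abundant embryo features of PI358617 took 0.133% and 0.13% of counts at D1, 0.441% and 0.36% at D3, 5.95% and 5.13% at D4, and 7.11% and 6.89% at D5, against 26.8 to 58.3% in JI261 embryos. Embryo-typical transcripts were thus above 5% of counts in every D4 and D5 seed coat library and below 0.5% in every D1 and D3 library. In these bulk samples fewer cells of a type and less RNA per cell cannot be told apart. The part of embryo material in the rises described below was not tested.

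**Figure D1:**
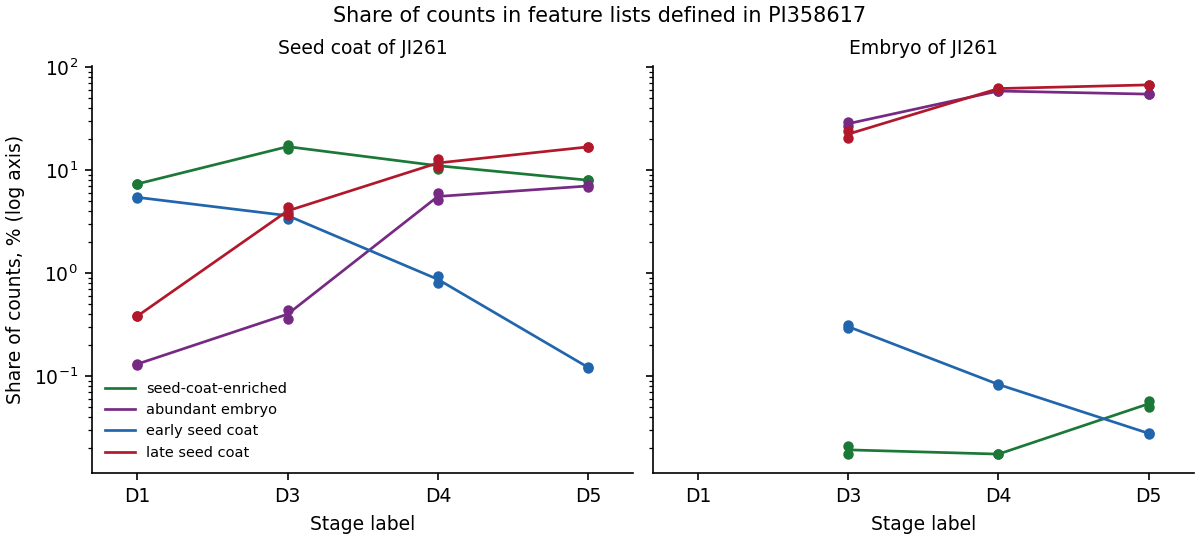
Share of counts (%, log axis) in lists defined in PI358617, by stage, in the seed coat of JI261 (left) and in its embryo (right), with points for libraries and lines through stage means. In the seed coat at D5 the late list reached 16.8% and 16.7%, the abundant embryo list 7.11% and 6.89%, and the early list came down to 0.123% and 0.121%.

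JI261 is described as progressing late, and this was checked with the features that differed most between D5 and D1 in the PI358617 seed coat, 300 early and 300 late ones. A stage score was taken as the mean log2(normalised CPM + 1) of the late list minus that of the early list. In JI261 the score was -3.46 ± 0.04 at D1, -0.42 ± 0.01 at D3, 3.72 ± 0.12 at D4 and 5.73 ± 0.05 at D5 (SD, n = 2 libraries each). At D3 JI261 had the lowest score of the 6 accessions, and the other 5 lay between 1.85 in PI358617 and 5.48 in JI64. At D4 it stood at rank 5 of 6, above PI358617 at 3.16. At D5 it stood at rank 4, between 5.31 in Cameor, the lowest, and 6.28 in JI1794, the highest. PI358617 is no independent point here, since its own libraries defined the lists. With the 59 late features left out that are also in an embryo list, the JI261 score was -0.67 at D3, again the lowest, 3.05 at D4 and 5.26 at D5.

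Whole profiles were set side by side as a description, with no test. The JI261 seed coat at D3 was closest to D3 itself in JI1794 (0.821), JI92 (0.816) and PI358617 (0.823), and to D1 in JI64 and Cameor. The JI261 seed coat at D4 had its highest Spearman correlation with the stage labelled D3, not D4, in all 5 other accessions, for example 0.841 with D3 and 0.826 with D4 of JI1794 over 45901 features. The JI261 seed coat at D5 was closest to D3 in 4 accessions and to D5 in PI358617. By the score, JI261 stood below all other accessions at D3 and within their range at D4 and D5. By the closest profile it matched an earlier label at D4 in all 5 accessions, at D5 in 4 and at D3 in 2. Only D5 lies after D4 and no label lies after D5, so a mismatch at D5 can only fall earlier. In those 4 accessions the margins at D5 ran from 0.777 with D3 against 0.77 with D5 in Cameor to 0.822 against 0.711 in JI64. Cameor and JI92 had 1 seed coat library each at D5. The tally is thus no test of a lag.

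**Figure D2:**
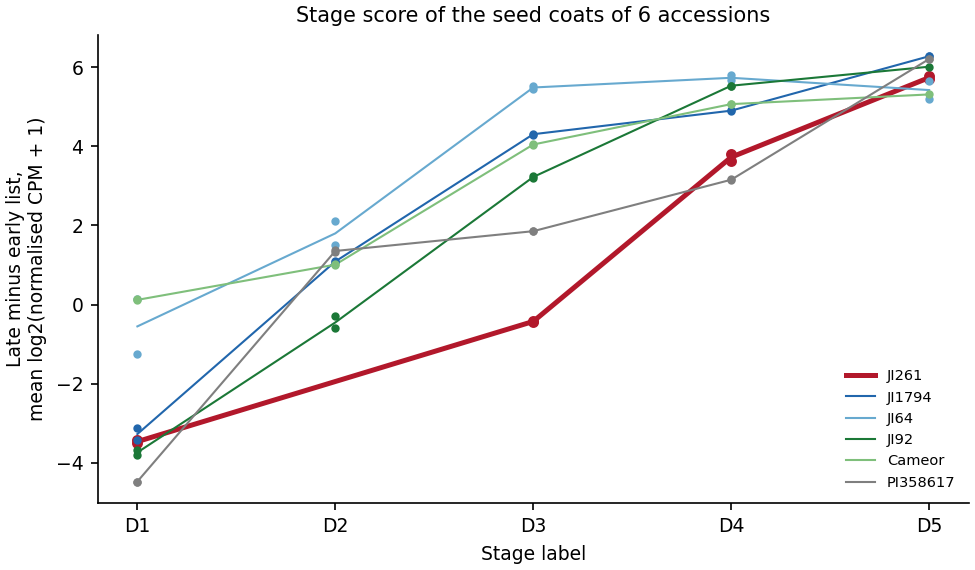
Stage score (late list minus early list, mean log2(normalised CPM + 1)) by stage label for the seed coats of 6 accessions, with points for libraries and lines through means. JI261, the thick line, lies lowest at D3, at -0.42, and stands at 5.73 at D5, between 5.31 in Cameor and 6.28 in JI1794. Its line passes over D2, where no library of it was analysed.

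Setting D4 and D5 against D1 and D3 showed a broad turnover of the JI261 seed coat. Of 25494 tested features, 5479 (21.5%) rose and 5694 (22.3%) fell at D4 and D5, by edgeR's quasi-likelihood test at an adjusted p under 0.05. The balance turned with the scaling: with library totals 6447 rose and 4837 fell, and with limma on log2(FPKM + 1) 6731 rose and 5259 fell. In the TMM fit 3321 rose and 3884 fell by at least 2-fold, and 735 rose and 1184 fell by at least 16-fold. In all, 112 features had counts in every D4 and D5 library and none at D1 and D3, and 173 had counts in every D1 and D3 library and none at D4 and D5. The 5694 features that fell took 61.2% and 61.1% of counts at D1, 56.3% and 58.2% at D3, 27.1% and 29% at D4, and 18.8% in both libraries at D5. With D4 and D5 taken as 1 group of 4 libraries and D1 and D3 as the other, the count of called features was 5970 in place of 11173.

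Psat1g073640 had the highest level at D4 and D5 among features that rose by a log2 value of at least 2 and whose libraries did not overlap between the early and late stages. It had 32.9 and 35 normalised CPM at D1, 386 and 372 at D3, 5510 and 8210 at D4, and 10600 and 11000 at D5. Every D4 and D5 library lay above every D1 and D3 library, and the log2 change was 6.24 ± 0.16 (SE, edgeR adjusted p = 1.83e-07). Psat1g073640 was also among the highest features of the JI261 embryo. On the scale of the fit over both tissues it averaged 308 in the seed coat and 27800 normalised CPM in the embryo at D3, 5760 and 106000 at D4, and 9160 and 94000 at D5. Its seed coat level was thus 1.11%, 5.41% and 9.74% of its embryo level at D3, D4 and D5. The same ratio for the 50 abundant embryo features had a median of 1.44% at D3, 5.44% at D4 and 6.01% at D5.

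Psat6g018800 rose without a matching embryo signal. It had 281 and 259 normalised CPM at D1, 1330 and 975 at D3, 3670 and 2810 at D4, and 13200 and 13000 at D5. At D4 and D5 it was higher than at D1 and D3 by a log2 value of 3.55 ± 0.14 (SE, edgeR adjusted p = 9.72e-07). On the scale of the fit over both tissues it averaged 936 normalised CPM in the seed coat at D3, 2740 at D4 and 11200 at D5, against 5.3, 3.44 and 6.57 in the JI261 embryo. It took the largest share of counts at D5, 1.38% on average.

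The feature with the largest fitted rise was Ps_DOR2genes.56267, a locus outside the annotation. It had no counts (0) in the 4 libraries of D1 and D3, 13.6 and 9.63 normalised CPM at D4, and 61.2 and 29.8 at D5, at least 2427-fold higher when 3 counts are allowed over the D1 and D3 libraries. In the embryo it had 163 and 210 normalised CPM at D4 and 467 and 428 at D5, so its level in the seed coat again moved beside a higher level in the embryo.

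Psat2g026840 had the highest level at D1 and D3 among features that fell by a log2 value of at least 2 and whose libraries did not overlap. Psat7g234440, described with the next step, was higher still and also fell (log2 change -3.95 ± 0.17, SE, edgeR adjusted p = 1.49e-06), but 1 of its D4 libraries lay above its D1 libraries. Psat2g026840 itself had 6430 and 6330 normalised CPM at D1, 41300 and 66700 at D3, 3800 and 4320 at D4, and 290 and 255 at D5, a log2 change of -4.14 ± 0.17 (SE, edgeR adjusted p = 1.15e-06). That difference joined a peak at D3 with a low level at D5, and the D4 libraries lay below the D1 libraries by less than the D3 libraries lay above them. In the fit of 2 groups of 4 libraries the call for Psat2g026840 was lost (edgeR adjusted p = 0.0547). Psat7g247280 showed the largest fitted fall, with 132 and 122 normalised CPM at D1, 19.5 and 12.2 at D3 and no counts (0) at D4 or D5. It fell by at least 6473-fold, with 3 counts allowed over the D4 and D5 libraries, and it had no counts (0) in the JI261 embryos.

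**Figure D3:**
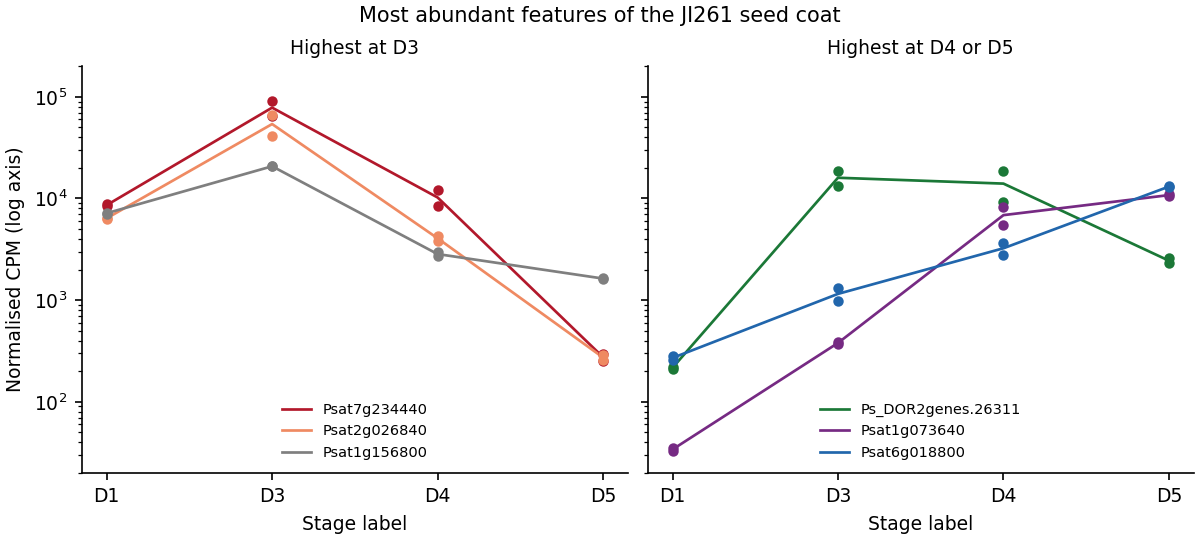
Normalised CPM (log axis) by stage label of the 6 features that were among the 2 highest by share of counts at a stage of the JI261 seed coat, with points for libraries and lines through stage means. Psat7g234440 and Psat2g026840 peak at D3, while Psat6g018800 and Psat1g073640 reach 13200 and 13000, and 10600 and 11000, at D5. Ps_DOR2genes.26311, in the right panel, is highest at D4 by mean share of counts only. Its mean normalised CPM is 16000 at D3 and 14000 at D4.

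The step from D1 to D3 was marked by a few features that came to hold much of the library. Of 25494 features, 3471 (13.6%) rose and 2870 (11.3%) fell at D3 against D1. Psat7g234440 had 8430 and 8770 normalised CPM at D1, 65100 and 91500 at D3, 8370 and 12100 at D4, and 296 and 253 at D5. It rose at D3 by a log2 value of 3.19 ± 0.23 (SE, edgeR adjusted p = 7.75e-05). It was in the D3 libraries 4.93% and 6.43% of all counts. Together with Psat2g026840 it took 1.8% and 1.86% of counts at D1, 8.06% and 11.1% at D3, 1.3% and 1.74% at D4, and 0.062% and 0.0531% at D5. Both libraries of D3 were far above those of all other stages for this pair of features.

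Psat1g156800 peaked at D3 as well, with 7250 and 7070 normalised CPM at D1, 20700 and 20800 at D3, 2950 and 2730 at D4, and 1610 and 1650 at D5. Per gene length it was above Psat7g234440 at both early stages, with a mean of 6760 FPKM against 1420 FPKM at D1 and 12000 FPKM against 7920 FPKM at D3. A large share of counts in Psat7g234440 was therefore not the highest level per length. Among features absent at D1, Ps_DOR2genes.5151 showed the largest fitted rise, with no counts (0) at D1, 25.7 and 28.7 normalised CPM at D3, 27.5 and 27.1 at D4, and 1.57 and 1.28 at D5. It was at least 1435-fold higher at D3 than at D1, and it had no counts (0) in the embryos.

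Downward, Psat7g197880 had 1850 and 1800 normalised CPM at D1, 287 and 195 at D3, 16.5 and 10.3 at D4, and 6.24 and 5.89 at D5, and its log2 change at D3 was -2.92 ± 0.26 (SE, edgeR adjusted p = 0.000183). Psat0s1681g0120 had 48.3 and 53.7 normalised CPM at D1 and no counts (0) at D3, and fell by at least 1647-fold.

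The balance of this step depended on the scaling. With library totals and no TMM factor, 1355 features rose and 8204 fell at D3, and the median log2 change of all features moved to -0.91, while it was -0.17 with TMM. In a fit over all 56 seed coat libraries 2218 rose and 3974 fell. Without D1 replicate 1 or D1 replicate 2, 3259 and 3248 features passed the test in place of 6341.

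From D3 to D4 the features that dominated D3 came down and embryo-typical features rose. Of 25494 features, 24.6% changed at D4 against D3, with 3094 (12.1%) higher and 3175 (12.5%) lower. Psat7g234440 fell by 2.94 ± 0.23 on the log2 scale (SE, edgeR adjusted p = 0.000124). Psat1g073640 rose by 4.18 ± 0.2 (SE, edgeR adjusted p = 1.63e-05). Of the 50 abundant embryo features, 47 rose and none (0) fell, with a median log2 change of 4.4, while the median of all features was 0.04. Ps_DOR2genes.40992 had 0.893 and 0 normalised CPM at D1, no counts (0) at D3, 65.9 and 68.7 normalised CPM at D4, and 4.11 and 5.26 at D5, so it was high at D4 alone. It was at least 2173-fold higher at D4 than at D3, and in the embryo it had 22 and 24.5 normalised CPM at D4. The seed coat was not called different from the embryo at D4 (log2 difference 1.29 ± 0.69, SE, edgeR adjusted p = 0.147). At D5 the seed coat was the lower tissue (log2 difference -1.87 ± 0.72, SE, edgeR adjusted p = 0.0487). Ps_DOR2genes.35540 showed the largest fitted fall, with 2.08 and 0 normalised CPM at D1, 15.8 and 19.8 at D3, no counts (0) at D4, and 0 and 1.88 at D5. It fell by at least 821.6-fold (edgeR adjusted p = 0.0449). Its call was lost in 4 of the 8 fits that left out a library, those without a D3 or a D4 library. With library totals 6710 features rose and 1622 fell at D4, and the median of all features was 0.58.

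The last step, from D4 to D5, was the smallest by count. Of 25494 features, 1483 (5.82%) rose and 2190 (8.59%) fell at D5 against D4. Psat6g018800, described above, rose by 2.02 ± 0.19 on the log2 scale (SE, edgeR adjusted p = 0.000448), and Psat1g073640 by 0.65 ± 0.18 (SE, edgeR adjusted p = 0.0459). In the fit over 56 libraries the call for Psat6g018800 was lost (log2 change 2.06, edgeR adjusted p = 0.121). Ps_DOR2genes.26311 held the largest mean share of counts at D4, 1.5%, with 2.02% and 0.981% in the libraries. In D4 replicate 2 Psat7g234440 was above it, at 1.28%. Ps_DOR2genes.26311 had 222 and 210 normalised CPM at D1, 18800 and 13200 at D3, 18800 and 9220 at D4, and 2320 and 2570 at D5. Its log2 change at D5 was -2.52 ± 0.33 (SE, edgeR adjusted p = 0.00205). That call was lost in the fit over 56 libraries as well (log2 change -2.48, edgeR adjusted p = 0.106). Its D4 libraries differed by more than its D3 and D4 means, and D4 against D3 did not pass the test (log2 change -0.19 ± 0.31, edgeR adjusted p = 0.731). In the embryo Ps_DOR2genes.26311 had 1.71 to 16.8 normalised CPM.

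At the same step Ps_DOR2genes.52271 had 78 and 106 normalised CPM at D5 and no counts (0) at any earlier stage, at least 4254-fold higher than at D4. In the embryo it had 301 and 236 normalised CPM at D4 and 1130 and 990 at D5. Psat3g104920 had 53.1 and 24.1 normalised CPM at D4 and no counts (0) at D5, and fell by at least 1722-fold (edgeR adjusted p = 0.0446). Its call was lost in 6 of the 8 fits that left out a library, those without a D1, D4 or D5 library. In the embryo it had 954 and 1040 normalised CPM at D4 and 28 and 25.1 at D5, so it came down in both tissues. Without D5 replicate 1 or D5 replicate 2, 1689 and 1767 features passed the test of this step in place of 3673.

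**Figure D4:**
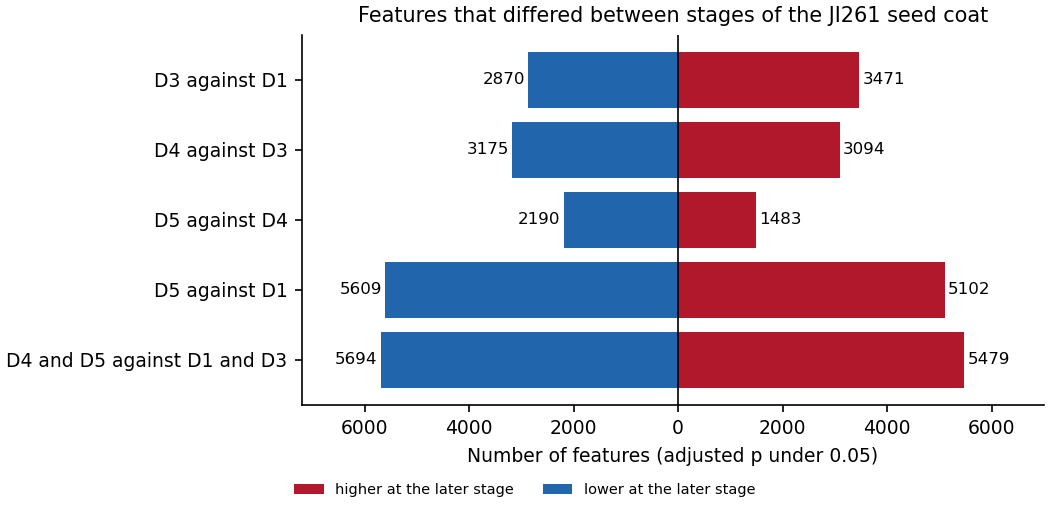
Number of features higher (right, red) and lower (left, blue) at the later stage in each comparison within the JI261 seed coat, at an edgeR adjusted p under 0.05 out of 25494 tested. D5 against D4 has the smallest bars, 1483 higher and 2190 lower, and D4 and D5 against D1 and D3 the largest, 5479 and 5694.

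From end to end, 5102 features (20%) rose and 5609 (22%) fell at D5 against D1. Psat4g030520 had no counts (0) at D1, 6.09 and 4.37 normalised CPM at D3, 81.8 and 76.8 at D4, and 596 and 634 at D5. It rose at every step, was at least 32430-fold higher at D5 than at D1, and did not exceed 2.17 normalised CPM in the embryo. Psat3g049800 took the opposite course, with 1170 and 1140 normalised CPM at D1, 1.24 and 0.335 at D3, 0.148 and 0 at D4, and no counts (0) at D5. It fell by at least 51400-fold between D1 and D5, and most of that fall was complete by D3. Psat7g234440 ended below its D1 level, with a log2 change of -4.97 ± 0.25 (SE, edgeR adjusted p = 3.89e-06).

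By the order of their stage means, most features that differed did not climb or decline steadily. Over all stages 12111 features (47.5%) differed. By the stage of their highest mean, 4215 (34.8%) peaked at D1, 2512 (20.7%) at D3, 1600 (13.2%) at D4 and 3784 (31.2%) at D5. The means of 2099 features rose at each step, those of 2029 came down at each step, and 7983 (65.9%) did neither. No single step was tested for this order, so a small reversal of means is enough to count as neither. The order and the peak stages rest on TMM-scaled means, and the place of D3 in them depends on the scaling. The 2512 features peaking at D3 held a large part of the library, 32.9% of counts at D1, 62.6% at D3, 32.9% at D4 and 20.8% at D5. Those peaking at D5 took 12.5%, 11.2%, 28.5% and 48% of counts at D1, D3, D4 and D5, and those peaking at D1 took 36.5%, 12.5%, 10.8% and 9.1%. The same libraries set the peak stage and gave these shares, so a high share at the peak follows from the grouping. Peaks at D4 were shallow, with a median ratio of 1.2 to the next highest stage, while the ratio was 1.83 for peaks at D1, 1.4 at D3 and 1.47 at D5. This ratio depends on which stages were sampled. D4 lies between sampled stages, D1 and D5 lie at the ends, and D2 was not analysed.

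The first and the last step share no library, so their calls can be compared. At D5 against D4, 5.82% of all features rose and 8.59% fell. At D3 against D1 13.6% rose and 11.3% fell, a split that turns with library totals as given above. Of the 3471 features that rose at D3 against D1, 727 fell at D5 against D4, which is 20.9% of the risers and 33.2% of the 2190 that fell at the last step. A further 495 rose at both, 14.3% of the early risers and 33.4% of the late ones. Of the 2870 that fell at D3, 270 rose at D5, 9.41% of the early fallers and 18.2% of the late risers, and 469 fell again, 16.3% and 21.4%.

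The stage lists of PI358617 moved the same way in JI261. Of the 300 late features, 293 were tested, and 275 rose and 3 fell at D4 and D5 against D1 and D3, with a median log2 change of 4.26 (4.37 with features absent from a group at their bound), while 21.5% of all features rose. By step, 161 rose at D3 against D1 (13.6% of all features), 238 at D4 against D3 (12.1% of all) and 132 at D5 against D4 (5.82% of all). Of the 289 tested early features, 270 fell and none (0) rose at D4 and D5, with a median log2 change of -5.78 (-5.82 with bounds), while 22.3% of all features fell. By step, 156 of the early features fell at D3, 196 at D4 and 124 at D5, where 11.3%, 12.5% and 8.59% of all features fell. With library totals in place of TMM these majorities kept their direction.

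Many late features are also embryo features. The late list shared 47 features with the embryo-enriched list and 41 with the abundant embryo list, and in JI261 embryos it took 20.5 to 67.1% of counts. Of the 59 late features in an embryo list, 58 were tested and 58 rose at D4 and D5 in the seed coat, with a median log2 change of 6.29. Of the 241 in no embryo list, 235 were tested and 217 rose and 3 fell, with a median of 3.81. In the seed coat the 241 took 0.354% and 0.353% of counts at D1, 4.08% and 3.51% at D3, 7.14% and 5.97% at D4, and 9.75% and 9.82% at D5. The 59 took 0.0301% and 0.0313% at D1, 0.253% and 0.198% at D3, 5.61% and 4.76% at D4, and 7.1% and 6.86% at D5. By count of features, 44 of the 58 and 117 of the 235 rose at D3 against D1, with medians of 2.63 and 1.08, and 58 of the 58 and 180 of the 235 rose at D4 against D3, with medians of 4.86 and 2.41. By count of features and by median both sets thus changed most from D3 to D4. By share of counts the 241 rose more from D1 to D3 than from D3 to D4.

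The tissue lists moved less uniformly. Beside the 21.5% of all features that rose and 22.3% that fell, 117 of 294 tested seed-coat-enriched features rose and 109 fell at D4 and D5, with a median log2 change of 0.06. At D3 against D1, 165 rose and 47 fell with a median of 1.08, where 13.6% of all features rose and 11.3% fell. At D4 against D3, 76 rose and 117 fell with a median of -0.29 (12.1% and 12.5% of all features), a balance that turned with library totals, where 110 rose and 93 fell with a median of 0.25. Of 230 tested embryo-enriched features, 102 rose and 44 fell at D4 and D5, with a median of 1.14. Of the 50 abundant embryo features, 49 rose and none (0) fell, with a median of 6.2, and at D5 against D4, 15 rose and 14 fell, where 5.82% and 8.59% of all features did.

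To set the rises beside the embryo, the ratio of seed coat to embryo level was taken for each feature. At D5 the highest ratio among the 50 abundant embryo features was 51.3%. Of the 5479 features that rose at D4 and D5, 4529 (82.7%) had a higher ratio than that at D5, and 3906 (71.3%) had a seed coat level above the embryo level. Of the 5694 that fell, 60.1% and 43.9% did so, and of the 300 late features 62.3% and 58.7%. At D4 the highest ratio was 32.6%, which 4871 (88.9%) of the features that rose and 77.2% of those that fell exceeded. At D3 it was 89.5%, which 61.1% of the features that rose and 60.5% of those that fell exceeded. At D3 57.9% and 57.6% of them had a seed coat level above the embryo level. The share over all tested features was not taken. The seed coat level at D5 enters both the ratio and the choice of the features that rose, so these shares are a description.

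Annotated features took part in these changes more often than loci outside the annotation. Of 21085 annotated features tested, 23.7% rose and 24.3% fell at D4 and D5, while of 4409 tested loci outside the annotation 10.8% rose and 12.8% fell. That difference was not tested. Of the 27737 loci outside the annotation, 4409 passed the filter on low counts. Among the identifier series Psat1g to Psat7g the shares ranged from 23.4 to 25.6% for rises and from 23.8 to 25.2% for falls, with no series far from the others.

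The same steps were next compared between JI261 and JI1794, with a test of the difference between the lines in each step. Of 30789 features, 6854 changed differently from D1 to D3, 2155 (7%) with a higher change in JI261 and 4699 (15.3%) with a lower change. From D3 to D4 the numbers were 2953 (9.59%) higher and 1683 (5.47%) lower, and from D4 to D5 3880 (12.6%) higher and 2522 (8.19%) lower. In the step from D1 to D3, 5 of 299 late features changed more upward in JI261 and 245 less, with a median difference of -4.29 on the log2 scale, while the median of all features was -0.25. From D3 to D4, 219 were higher and 3 lower, with a median difference of 2.75, and from D4 to D5, 90 were higher and 48 lower. The 240 tested late features in no embryo list gave 5 higher and 192 lower from D1 to D3, and 164 higher and 3 lower from D3 to D4. Of 297 tested early features, 132 had a higher change and 6 a lower one from D1 to D3, and 8 and 90 from D3 to D4. The late features thus rose less in JI261 up to D3 and more after it. With RLE size factors 2860 features had a higher and 3850 a lower change from D1 to D3, and with library totals 4965 had a higher and 1838 a lower change from D4 to D5.

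Single features follow as examples. They were picked among features whose steps differed between the lines, so they add no separate support. Psat0s2407g0320 was at 1.28 and 0.558 normalised CPM at D1, 0 in both libraries at D3, 56.3 and 61.9 at D4, and 605 and 572 at D5 in JI261, against 0 in both at D1, 126 and 119 at D3, 201 and 302 at D4, and 284 and 290 at D5 in JI1794. Its change from D1 to D3 differed between the lines (edgeR adjusted p = 1.19e-07), and JI1794 had reached at D3 what JI261 passed between D4 and D5. In the JI261 embryo this feature had 4.5 and 4.81 normalised CPM at D3, 1410 and 1480 at D4, and 6140 and 6020 at D5. Psat1g073640 had 37.5 and 39.7 normalised CPM at D1, 411 and 388 at D3, 6070 and 8890 at D4, and 11700 and 12300 at D5 in JI261, against 0.369 and 0.709 at D1, 5250 and 5280 at D3, 2580 and 2830 at D4, and 661 and 737 at D5 in JI1794. It was still climbing at D5 in JI261 and, of the stages compared, highest at D3 in JI1794. The difference of the step from D3 to D4 was 5.19 ± 0.3 on the log2 scale (SE, edgeR adjusted p = 5.53e-07).

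Psat6g018800, which is low in the embryo, had 320 and 294 normalised CPM at D1, 1410 and 1020 at D3, 4040 and 3040 at D4, and 14700 and 14500 at D5 in JI261, against 84 and 102 at D1, 4160 and 4250 at D3, 4880 and 5010 at D4, and 14700 and 15200 at D5 in JI1794. The lines stood apart at D3 and met at D5. Its change from D1 to D3 was lower in JI261 by a log2 difference of -3.51 ± 0.24 (SE, edgeR adjusted p = 9.11e-07), and that from D3 to D4 was higher by 1.31 ± 0.23 (SE, edgeR adjusted p = 0.00229). Psat5g004800 showed a lower change from D1 to D3 in JI261 too, with 802 and 794 normalised CPM at D1 and 1730 and 1160 at D3, against 459 and 471 at D1 and 5660 and 5620 at D3 in JI1794.

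**Figure D5:**
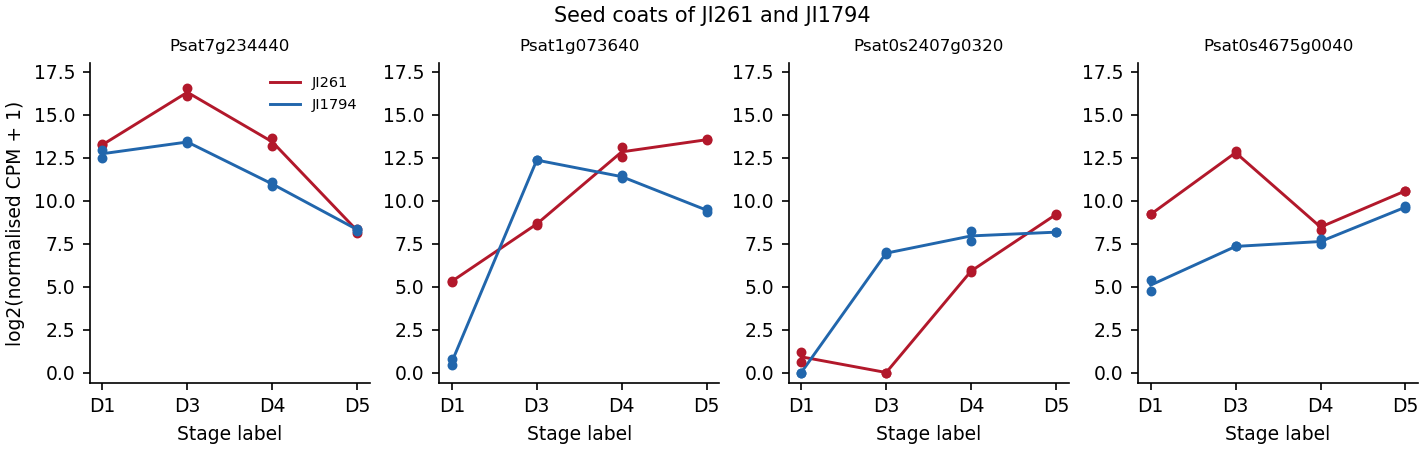
log2(normalised CPM + 1) by stage label of 4 features in the seed coats of JI261 (red) and JI1794 (blue), on the scale of the fit over both lines, with points for libraries and lines through stage means. Psat1g073640 is highest at D3 in JI1794 and at D5 in JI261. Psat0s2407g0320 is at 0 at D3 in JI261, against 126 and 119 normalised CPM in JI1794, and Psat7g234440 and Psat0s4675g0040 peak higher at D3 in JI261.

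At the stages compared, the D3 peak of JI261 was not matched in size. The D2 libraries of the other lines were not in these fits, so a peak there was not looked for. Psat7g234440 had 9590 and 9960 normalised CPM at D1, 69300 and 95400 at D3, 9230 and 13100 at D4, and 328 and 282 at D5 in JI261, against 7950 and 5840 at D1, 11400 and 10500 at D3, 1850 and 2180 at D4, and 306 and 330 at D5 in JI1794. The lines were near each other at D1 and D5 and far apart at D3. The change from D1 to D3 differed by 2.4 ± 0.29 on the log2 scale (SE, edgeR adjusted p = 6.85e-05). Psat0s4675g0040 had 589 and 590 normalised CPM at D1, 6720 and 7540 at D3, 401 and 310 at D4, and 1510 and 1540 at D5 in JI261, against 26.1 and 41.6 at D1, 161 in both at D3, 219 and 176 at D4, and 761 and 817 at D5 in JI1794. JI261 was above JI1794 at every stage compared, and its spike at D3 had no counterpart there at D1, D3, D4 or D5. The difference of the step from D3 to D4 was -4.62 ± 0.28 (SE, edgeR adjusted p = 8.07e-07). For Psat2g026840 the change from D1 to D3 differed by 0.02 ± 0.53 (SE, edgeR adjusted p = 1), and both JI261 libraries stood above both JI1794 libraries at D1 and at D3.

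Against the landrace JI92 the late features moved in the same directions in the first 2 steps. The split of all features in these steps was more even with TMM than against JI1794. Of 34280 features, 1736 (5.06%) had a higher and 2049 (5.98%) a lower change in JI261 from D1 to D3 (11% in either direction). From D3 to D4 1740 (5.08%) had a higher and 1658 (4.84%) a lower change (9.91% in either direction), and from D4 to D5 1405 (4.1%) a higher and 878 (2.56%) a lower change (6.66%). The last step rests on a single JI92 library at D5, which is assumed to vary like the others. Of 300 late features, 2 had a higher and 198 a lower change in JI261 from D1 to D3, 119 a higher and 23 a lower change from D3 to D4, and 72 a higher and 8 a lower change from D4 to D5. These comparisons share the JI261 libraries with those against JI1794, so the 2 sets are not independent. Without D1 replicate 1 or D1 replicate 2 of JI261, 2195 and 2196 features differed in the first step in place of 3785. Without D5 replicate 1 or D5 replicate 2, 1356 and 1468 differed in the last step in place of 2283. With library totals 997 features had a higher and 3954 a lower change in the first step, 5870 a higher and 927 a lower change from D3 to D4, and 1139 a higher and 1247 a lower change from D4 to D5.

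Psat7g234440 had 8880 and 9330 normalised CPM at D1, 69300 and 97200 at D3, 8920 and 12800 at D4, and 318 and 270 at D5 in JI261, against 4790 and 7210 at D1, 7370 and 6080 at D3, 655 and 684 at D4, and 922 at D5 in JI92. These stages of JI92 held no such spike, and its D2 was not compared. The change from D1 to D3 differed by 3.03 ± 0.35 on the log2 scale (SE, edgeR adjusted p = 0.000195). Ps_DOR2genes.52307 had 4.65 and 4.71 normalised CPM at D1, 111 and 95 at D3, 1080 and 1370 at D4, and 8710 and 8680 at D5 in JI261, against 3.43 and 6.02 at D1, 2520 and 4650 at D3, 9550 and 10100 at D4, and 14600 at D5 in JI92. The lines were alike in level at D1 and apart at D3, where both JI92 libraries were above both JI261 libraries. Its change from D1 to D3 was lower in JI261 by a log2 difference of -5.11 ± 0.43 (SE, edgeR adjusted p = 2.04e-05). The change from D3 to D4 was higher in JI261 by 2.12 ± 0.41 (SE, edgeR adjusted p = 0.00638). In JI261 embryos this feature had 1.36 to 9.78 normalised CPM.

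Psat0s876g0120 had 10 and 3.06 normalised CPM at D3, 960 and 1180 at D4, and 4720 and 4840 at D5 in JI261, against 1.34 and 3.26 at D3, 8500 and 8320 at D4, and 12.4 at D5 in JI92. It was low at D3 in both lines, and the single JI92 library at D5 was far below both of D4. The difference of the step from D3 to D4 was -4.48 ± 0.67 on the log2 scale (SE, edgeR adjusted p = 0.00121). In JI261 embryos this feature had 15000 and 14900 normalised CPM at D4 and 28300 and 28200 at D5.

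The JI261 seed coat was last compared with the JI261 embryo. Of 28520 features, 54% differed at D3, 7099 (24.9%) higher and 8295 (29.1%) lower in the seed coat. At D4 51.4% differed, 7303 (25.6%) higher and 7365 (25.8%) lower, and at D5 54.9% differed, 7973 (28%) higher and 7698 (27%) lower. With library totals in place of TMM, 10695 were higher and 4429 lower at D4, and 11474 and 4576 at D5. With limma on log2(FPKM + 1) the numbers were 10707 and 3931 at D4 and 10922 and 3830 at D5, so the split depends on the scaling. The seed-coat-enriched and embryo lists kept their direction. Ps_DOR2genes.20074 had 2860 and 2780 normalised CPM in the seed coat at D3, 520 and 642 at D4, and 924 and 816 at D5, against no counts (0) in any of the 6 embryo libraries. Psat3g058800 was at the other end, with 7620 and 7450 normalised CPM in the seed coat at D5, against 118000 and 117000 in the embryo, a log2 difference of -3.96 ± 0.18 (SE, edgeR adjusted p = 1.11e-08). In the seed coat it came to that level late, with 114 and 91.7 at D3 and 5020 and 3890 at D4.

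Between D3 and D5 the tissues shared a good part of their changes. In the seed coat 36.6% of features changed at D5 against D3, of which 5532 rose and 4899 fell, and in the embryo 5068 (17.8%) rose and 6515 (22.8%) fell. Of these, 2324 rose in both tissues, 42% of the seed coat risers and 45.9% of the embryo risers, and 2759 fell in both, 56.3% of the seed coat fallers and 42.3% of the embryo fallers. Another 973 rose in the seed coat and fell in the embryo, and 579 fell in the seed coat and rose in the embryo. The change itself differed between the tissues for 8804 features (30.9%), 5417 (19%) with a higher and 3387 (11.9%) with a lower change in the seed coat. The median difference of all features was 0.31 on the log2 scale, toward the larger side of that split. These changes from D3 to D5 were not refitted with another scaling, so the split may depend on it.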

How the data were processed

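Messenger RNA was sequenced from seed coats and embryos. Per the labels' protocols, poly(A) RNA was captured on oligo(dT) beads and reverse transcribed from random hexamers. Reads were mapped to the Cameor v1.0 genome, per the series' design text, and StringTie 2.1.0 and HISAT2 2.1.0 are listed per the submitters' processing notes. The counting rule, the use of strand and the handling of copies are not given in the sources, so near-identical genes and overlapping or antisense loci are uncertain. The authors deposited raw counts per feature and FPKM values for the same features. All 117 value columns were matched to samples, and 0 columns were left unmatched.

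The test on counts was edgeR's robust quasi-likelihood F test (version 4.0.16, R 4.3.3) after TMM scaling and filterByExpr, with p-values adjusted by Benjamini-Hochberg and called under 0.05. The fit held 4 stage means over the 8 JI261 seed coat libraries. Differences between lines came from fits with JI1794 or JI92, and tissue differences from a fit with the JI261 embryos. Normalised CPM is given on the scale of the fit named, so it differs slightly between fits. The scripts were tested on simulated data. The main comparison averages the stages of each side. Lists were defined in PI358617 by edgeR as the 300 features of largest fold change at 10 CPM or more (for the abundant embryo list the 50 of highest CPM among those at least 16-fold higher in embryo).

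Per comparison and direction the text names the feature of largest fold change and that of highest mean CPM among those with a log2 change of at least 2, all with at least 5 CPM in the higher group and libraries that do not overlap (no overlap condition between lines), plus the 2 highest features of each stage. Not every feature so chosen is printed. Of the largest changes between lines only Psat0s2407g0320 is, chosen after its values were seen, as were the values of Psat6g018800, Psat2g026840 and Ps_DOR2genes.52307 in other comparisons than their own. A group without counts was allowed 3 counts over its libraries, which covers counting error only, since PCR copies were not told apart by molecular identifiers. Members, lists and comparisons were chosen with earlier results of these data known. Alternatives were RLE, no filter, DESeq2 1.42.0, log2(FPKM + 1) or log2(FPKM + 0.1) in limma 3.58.1, a replicate block, leaving out each library, a fit over 56 libraries, a 2-group fit and a minimum log2 change of 1. Library totals, the split of the late list, the ratio to the embryo and the change from D3 to D5 in both tissues were added after the data were seen.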

Additional observations from a re-analysis of the deposited data

Results flagged for a closer look

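Steps of development differed between the JI261 seed coat and other samples by a test of the difference itself. Against JI1794 this held for 6854 features from D1 to D3, 4636 from D3 to D4 and 6402 from D4 to D5. Against JI92 it held for 3785, 3398 and 2283 features in the same steps. The change from D3 to D5 differed between seed coat and embryo of JI261 for 8804 features.

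For the features of highest level that changed differently, the difference (step in JI261 minus step in the other line, log2 scale) was as follows. Against JI1794 from D1 to D3 it was 2.4 for Psat7g234440 and -2.74 for Psat5g004800. From D3 to D4 it was 5.19 for Psat1g073640 and -4.62 for Psat0s4675g0040. From D4 to D5 it was 2.63 for Psat1g073640 and -2.53 for Psat7g234440. Against JI92 from D1 to D3 it was 3.03 for Psat7g234440 and -2.63 for Ps_DOR2genes.26311. From D3 to D4 it was 2.12 for Ps_DOR2genes.52307 and -4.48 for Psat0s876g0120. From D4 to D5, with a single JI92 library at D5, it was 3.97 for Psat1g038600 and -5.67 for Psat7g234440. Of these, the call for Psat1g038600 was lost in each of the 8 fits that left out a JI261 library, with adjusted p up to 0.112 by edgeR. The gap between sorted values was examined in 21 sets of 4 or 8 libraries that span stages, and none (0) held a library far from the others. Within a stage, 2 libraries allow no such look.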

How the results depend on the processing

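Of 234 recomputed counts of called features, 209 stayed within 1.5 times the reported count. Of 848 recomputed values of named features, 811 kept direction and call, 37 lost the call and 0 reversed. Of the 25 counts that moved, 8 came from leaving out a D1 or D5 library, given as ranges below, and the other 17 were these. D3 against D1 gave 10636 features with limma on log2(FPKM + 1), 10324 with log2(FPKM + 0.1), 11824 with log2(FPKM + 1) and no filter, and 9559 with library totals. A minimum log2 change of 1 gave 7205 features for D4 and D5 against D1 and D3, 4129 for D3 against D1, 4115 for D4 against D3 and 2412 for D5 against D4, and the 2-group fit gave 5970 for the first. Against JI1794, limma on log2(FPKM + 1) gave 10354 from D1 to D3. Against JI92, it gave 7196, 8772 and 4027 in the 3 steps, log2(FPKM + 0.1) gave 6636, 8471 and 3468, and DESeq2 gave 3525 from D4 to D5. The cause was not tested.

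Leaving out 1 library gave 3248 to 7211 features for D3 against D1, 1689 to 4588 for D5 against D4, 8719 to 11656 for D4 and D5 against D1 and D3, and, against JI92, 2195 to 4451 from D1 to D3 and 1356 to 2331 from D4 to D5. With a lone library left in a stage, that library is assumed to vary like the others. Same-numbered libraries did not deviate together (correlations of -0.016 to 0.14 over 6 pairs of stages), so the numbers were not taken as pairs. The replicate block gave 10631, 6139, 6021 and 3586 features for D4 and D5 against D1 and D3 and for the 3 steps, and all its counts stayed within 1.5 times. Library totals moved the median log2 change of all features to 0.12 for D4 and D5 against D1 and D3, against JI92 to -0.41 and 0.58 in the first 2 steps, and between tissues to -0.55, 0.56 and 0.71 at D3, D4 and D5. At 60.32 M counts or more per library, depth limited mainly features near 0, where 3 counts set the bound of a fold.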
